A study of Mus musculus with 90 samples.

Results

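The results below follow 50 mouse genes of glycolysis, pyruvate use and the tricarboxylic acid (TCA) cycle through oocytes and early embryos with and without maternal Plag1. The genes were listed by pathway and enzyme name, with earlier results of these data known, and the count table held 50 of 50. Of these, 49 had at least 1 CPM (counts scaled to the library total) in at least 5 of the libraries kept and were tested, and Pdk4, an inhibitory kinase of pyruvate dehydrogenase, had 0 of 37319537 counts, which allows a level of up to 0.0804 CPM.

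The study asked what the zinc finger transcription factor PLAG1, deposited in the egg by the mother, does for early mouse development. Single metaphase II (MII) oocytes, 2-cell (2c) and 8-cell (8c) embryos of the CD-1 strain were profiled from the 5′ ends of their transcripts by STRT, with molecular identifiers and ERCC spike-in RNAs. Females were 1 to 3 months old and were superovulated. In the knockout (KO) allele lacZ takes the place of the Plag1 reading frame.

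The WT groups came from WT females and the KO groups from KO females. Embryos of both kinds were sired by WT studs, so a KO embryo here is heterozygous and lacks only the maternal copy. MII oocytes were taken 21 to 23 hours after hCG, 2c embryos 45 to 47 hours and 8c embryos 71 to 73 hours after fertilisation, the embryos after culture in KSOM medium. Of 90 libraries 78 were kept, namely 16 WT and 14 KO at MII, 11 WT and 11 KO at 2c, and 15 WT and 11 KO at 8c, spread over 2 library pools, libA and libB in the labels and pools A and B below, that each held every group. The 12 libraries left out had a median under 1 CPM.

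Depth set how finely a gene could be read. The lowest, median and highest total gene counts per kept library were 222357, 395023 and 2502421 in WT and 438233, 649899 and 1772844 in KO at MII. At 2c they were 116914, 148473 and 194287 in WT and 92475, 163626 and 256529 in KO, and at 8c 264386, 564009 and 696870 in WT and 214053, 393914 and 664771 in KO. The 2c libraries were therefore the shallowest, and 3 counts over the whole WT 2c group, the floor used here for a gene with no counts, equal 1.81 CPM. Intervals and floors cover counting error only.

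Each library is 1 oocyte or embryo and donor females are not named, so p-values measure only the spread between these single oocytes and embryos. Genotype differences were tested after TMM scaling, which compares a gene with the bulk of the other genes in the library. Stage differences were tested per spike-in count, so they concern a whole oocyte or embryo, of 2 cells at 2c and 8 at 8c by the labels, and not 1 cell. STRT counts each molecule at its 5′ end whatever its length, so levels of different genes can be set side by side. A CPM below is on TMM library sizes, except the floor of 1.81 CPM, which is on raw total gene counts. Where 3 values are given for a group, they are its lowest, median and highest CPM. An edgeR p is that of the quasi-likelihood test, BH-adjusted (Benjamini-Hochberg) over 16511 genes, or under an alternative over the genes tested there. A range over alternatives of a genotype difference includes the p of DESeq2.

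Plag1 was checked first. In WT its CPM ran at 2.32, 24.3 and 143 at MII, 0, 0 and 4.32 at 2c and 0, 0 and 12.2 at 8c, and in KO at 0, 0 and 3.28 at MII, 0, 35.7 and 90.2 at 2c and 0, 0 and 6.50 at 8c. All 16 WT oocytes held Plag1 counts against 3 of 14 KO oocytes, with 4 counts in all, and the ranges met only at their edges. At 2c the order was the other way round, with counts in 1 of 11 WT and 9 of 11 KO embryos, whose paternal copy is intact. At 8c the groups overlapped near 0. The oocyte values match the labels, although 5′ tags lying upstream of the deleted part could still be counted in KO, and where the Plag1 tags lie is not given in the sources used here.

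Marker genes described what else was in the wells. Oocyte markers such as Zp3 and Gdf9 summed to means of 17325 at MII, 3692 at 2c and 231 at 8c CPM in WT and 26491 at MII, 5303 at 2c and 242 at 8c CPM in KO. Markers of the 2c embryo such as Zscan4c summed to 334 CPM in WT and 574 CPM in KO at 2c. Markers of the 8c embryo summed to 2220.1 CPM in WT and 1254 CPM in KO at 8c, of which Pou5f1 made up 1249 and 648 CPM. Pou5f1 is also an oocyte transcript, and at MII the same sums were 762 CPM in WT and 694 CPM in KO, with 609.7 and 535 CPM of Pou5f1. Cumulus and granulosa markers summed to 273 CPM in WT and 460.4 CPM in KO oocytes, almost all of it Serpine2, and 10 and 9 of the 16 had no counts. Blood markers averaged at most 1.50 CPM in any group. The means of the oocyte, 2c, 8c and cumulus marker sums thus differed between genotypes, while the ranges of single libraries overlapped. These differences, and their part in the results below, were not tested.

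Glycolysis splits glucose into pyruvate in the cytosol, and lactate dehydrogenase turns pyruvate into lactate or back. Mitochondria take pyruvate up through a carrier, oxidise it in the pyruvate dehydrogenase complex and feed the acetyl group into the TCA cycle, while the pentose phosphate pathway draws on glucose 6-phosphate for NADPH and ribose. Mouse eggs and early cleavage embryos are known to live on pyruvate and lactate and to use glucose more as they approach the blastocyst.

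Some members are uncertain. Gapdh, Pgk1, Pgam1, Eno1, Ldha, Pkm, Tpi1 and Aldoa have near-identical copies or pseudogenes elsewhere in the genome that can share their reads. By their mm9 coordinates, as deposited, 12 members overlap another gene, and whether the counting used strand is not stated. These are Hk1 with Hk1os, Pfkm with Senp1, Pfkp with Pitrm1, Tpi1 with Spsb2, Pgam1 with Gm38437 and small RNA genes, and Eno1 with Eno1b. The others are Mpc1 with 4930506C21Rik, Pdha1 with Map3k15, Pcx with Lrfn4, Idh3b with Nop56, G6pdx with Ikbkg and Tkt with Mir3076.

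**Figure D1:**
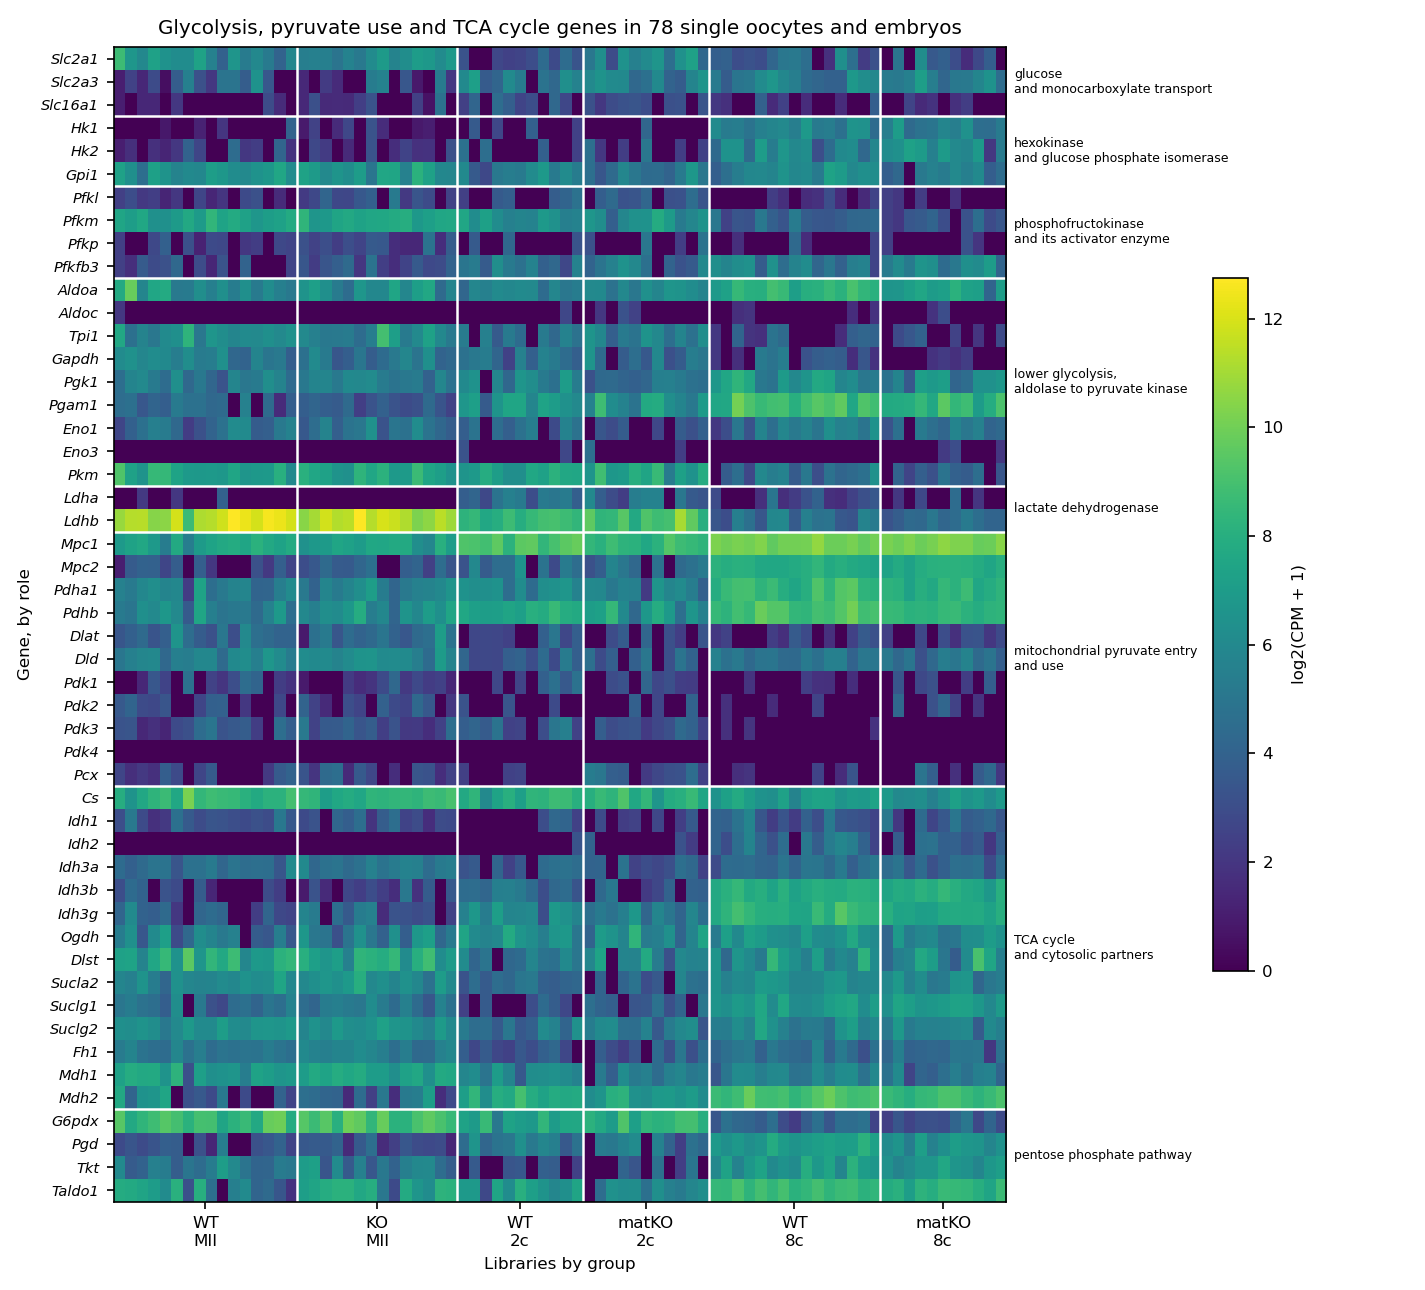
Each column is 1 library, sorted by group, and each line 1 of the members, sorted by role, with the colour giving log2 of CPM plus 1. In all figures matKO marks KO embryos. Ldhb stands out at MII, and at 8c genes such as Mpc1, Pdhb and Mdh2.

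Summed over the 50 members, mean levels in WT were 6376 at MII, 3255 at 2c and 6117 at 8c CPM, and in KO 6000.4 at MII, 3244 at 2c and 4869 at 8c CPM. Ldhb alone made up 3377 CPM of the WT and 2775 CPM of the KO sum at MII. Without Ldhb the WT means were 2999 at MII, 2897 at 2c and 6088 at 8c CPM, and as a mean percent of the gene counts of a library 0.309%, 0.354% and 0.473%. The WT mean was highest at MII for 19 of 49 members, at 2c for 7 and at 8c for 23, against 38.5%, 26.6% and 34.8% of all tested genes. In 42 of 49 members KO peaked at the same stage as WT. The same count over all tested genes was not made.

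Between MII and 2c an egg is fertilised, clears much of the RNA stored during oocyte growth and begins to transcribe its own genome. Energy still comes mainly from pyruvate and lactate at this time. Transcripts such as Ldhb and Slc2a1 that the oocyte stored can fall here with no new synthesis, while genes such as Mpc1 can already be read from the embryo's genome. In WT, 4 members rose per spike-in from MII to 2c and 28 fell, while 14.1% and 51.3% of all genes did. The median over all tested genes shifted by log2 -1.46 per spike-in and that of the members by -2.01. After TMM scaling the same medians were -0.03 and -0.17, and 15 members rose and 18 fell, while 27.5% and 23.1% of all genes did. The 22 members called under both scalings had the same direction in each. Both scalings use the same counts, so this is not an independent check. Falls such as that of Ldhb were called on both scales. Those of Pfkp, Pkm, Pcx, Eno1, Taldo1, Cs, Pgk1, Gapdh, Pdk2 and Pdha1 were called only per spike-in.

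From 2c to 8c the embryo completes its switch to its own transcripts and prepares for compaction. Mitochondria mature and glucose use begins to climb in this window. Hexokinases such as Hk1 and Hk2, and TCA cycle genes such as Idh2, can then be read from the embryo's own genome. New transcription was not measured here. In WT, 28 members rose per spike-in and 7 fell, while 31.9% and 16.2% of all genes did. The median was log2 0.53 over all genes and 1.68 over the members per spike-in, and -0.12 and 0.82 after TMM scaling, where 23 members rose and 12 fell, while 21.0% and 28.9% of all genes did. All 30 members called under both scalings kept their direction, again on the same counts. The rises of Slc2a1, Gpi1, Pfkfb3, Eno1 and Idh3a were called only per spike-in.

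Across the 3 WT stages, per spike-in, 16 members fell and then rose, while 15.8% of all genes did, among them Aldoa, Dlst, Suclg1, Tkt and Taldo1. Another 10 were not called at first and then rose, while 11.6% of all genes did, namely Hk1, Hk2, Mpc2, Mdh2, Idh2, Idh3b, Idh3g, Pgd, Pfkfb3 and Pdhb. All of these but Hk1 and Hk2 were called higher from MII to 2c after TMM scaling. Ldhb, Pfkm, Pkm and G6pdx fell at both steps, while 9.91% of all genes did, and Mpc1 and Pgam1 rose at both, while 4.51% of all genes did. Eno3 rose and then fell on very few counts. Pfkl, Aldoc, Ogdh, Slc16a1 and Slc2a3 were called at neither step, as were 19.5% of all genes. After TMM scaling Ogdh, Slc16a1 and Slc2a3 were called from MII to 2c, and Pfkl from 2c to 8c.

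**Figure D2:**
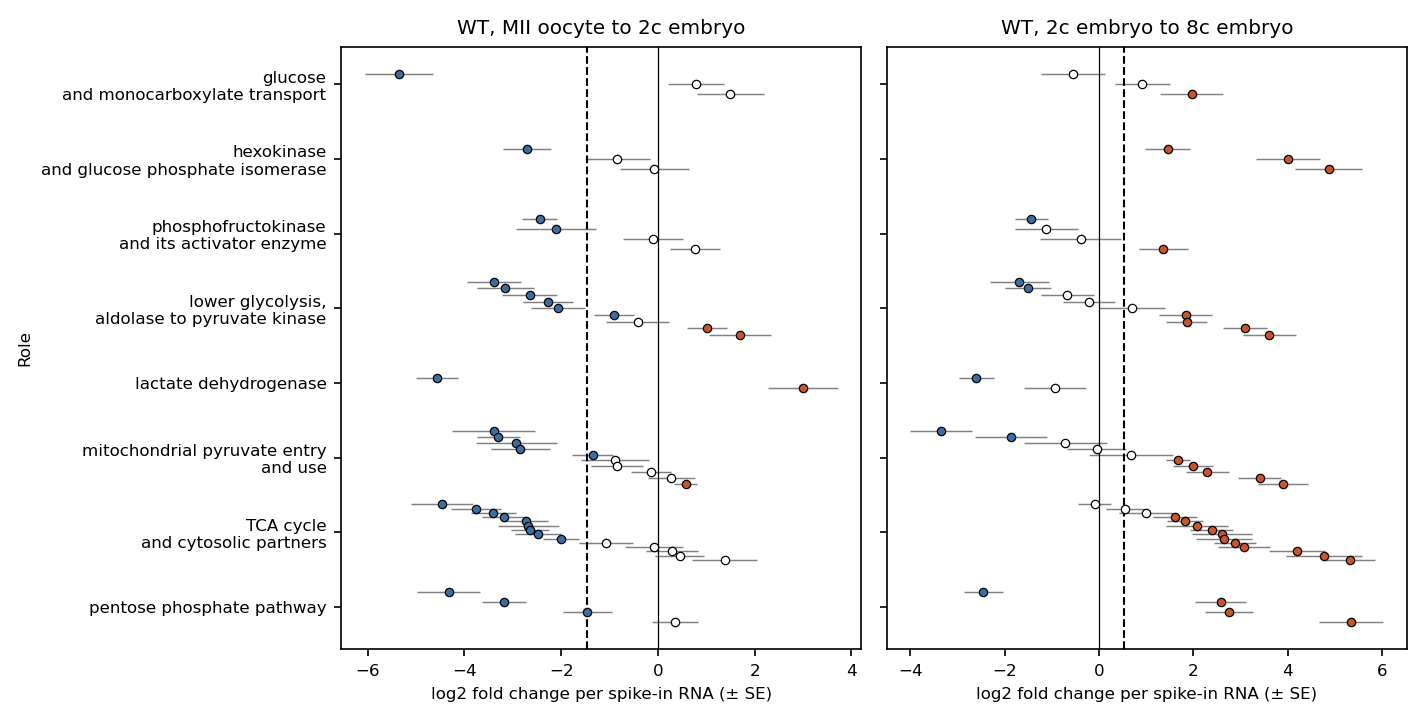
Points are members, grouped by role, at their log2 fold change per spike-in with SE, at the MII to 2c step and the 2c to 8c step in WT. Dashed lines mark the median over all tested genes, and filled points are called members.

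Transport comes first in the pathway. Slc2a1 and Slc2a3 encode glucose transporters of the cell surface and Slc16a1 a monocarboxylate transporter that carries lactate and pyruvate. Together they averaged 112 at MII, 64.0 at 2c and 68.0 at 8c CPM in WT and 86.0 at MII, 122 at 2c and 66.1 at 8c CPM in KO. Slc2a1 stood at 14.5, 66.6 and 428 at MII, 0, 6.26 and 21.8 at 2c and 0, 12.9 and 81.7 at 8c in WT and at 29.2, 60.1 and 133 at MII, 6.69, 67.1 and 158 at 2c and 0, 7.21 and 74.4 at 8c in KO. At 2c the KO embryos were high and the WT embryos low, with ranges that met only from 6.69 to 21.8 CPM, while at MII and 8c the genotypes overlapped widely. Per spike-in, Slc2a1 fell from MII to 2c in WT (log2 -5.35, SE 0.71, edgeR BH-adjusted p 6.03e-10) and in KO (log2 -1.94, SE 0.58, edgeR BH-adjusted p 0.00250). It rose again to 8c in WT (log2 1.97, SE 0.67, edgeR BH-adjusted p 0.0111) and was not called in KO (log2 -1.32, SE 0.61, edgeR BH-adjusted p 0.0663). After TMM scaling 3 of these 4 outcomes differed. The fall of Slc2a1 to 2c in KO was not called (log2 -0.13, SE 0.45, edgeR BH-adjusted p 0.853, 3.20e-04 to 0.853 over alternatives), nor was its rise to 8c in WT (log2 1.19, SE 0.60, edgeR BH-adjusted p 0.0874, 0.00266 to 0.0874 over alternatives). Its fall to 8c in KO was called on that scale (log2 -2.09, SE 0.52, edgeR BH-adjusted p 4.31e-04, 4.31e-04 to 0.774 over alternatives). Its promoter, from RefSeq on GRCm38.p6 (chr4:119108495-119108744, plus strand), is shown because its genotype difference at 2c was called.
Slc2a1: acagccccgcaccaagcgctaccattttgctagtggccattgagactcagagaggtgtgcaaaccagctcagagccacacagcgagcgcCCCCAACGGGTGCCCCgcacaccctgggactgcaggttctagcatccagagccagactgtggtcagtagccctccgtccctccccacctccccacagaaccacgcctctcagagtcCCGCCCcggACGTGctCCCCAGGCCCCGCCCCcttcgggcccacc
Capitals in this and the other promoters mark the TATA box letters TATAAA, the core ACGTG of some E-boxes, the GC box letters GGGCGG and the PLAG1 consensus, on either strand in the 250 bases before the start. The PLAG1 consensus was searched as GRGGC, a gap of a few bases and GGG, with R for G or A. The study writes its consensus with K (G or T) as well. Its other PLAG1 motifs were not searched, so shares given here cannot be set beside its own. Slc2a1 held 1 copy of ACGTG, 2 of GGGCGG and 2 matches of the PLAG1 consensus, of which 1 overlaps a GGGCGG.

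Slc2a3, the high-affinity transporter, stood at 0, 7.31 and 88.1 at MII, 0, 36.4 and 145 at 2c and 11.9, 35.4 and 109 at 8c in WT and at 0, 1.86 and 48.7 at MII, 12.2, 63.8 and 96.8 at 2c and 17.4, 38.8 and 139 at 8c in KO. Its ranges overlapped between genotypes at each stage and between stages, and it was called in none of the 9 comparisons, though after TMM scaling it was called higher at 2c than at MII in WT (log2 1.78, SE 0.59, edgeR BH-adjusted p 0.00774, 0.00774 to 0.740 over alternatives) and in KO (log2 2.39, SE 0.60, edgeR BH-adjusted p 4.59e-04, 4.59e-04 to 0.554 over alternatives). Slc16a1 was low, with group medians between 0 and 7.70 CPM. Of the glucose transporter counts pooled over a group, Slc2a1 made up 93.5% of 1291 in WT and 91.1% of 924 in KO at MII. At 2c it was 13.7% of 117 in WT and 57.1% of 294 in KO. At 8c it was 28.1% of 420 and 24.1% of 274. Slc2a3 therefore led in WT embryos at both stages and in KO at 8c. In KO 2c embryos the share of Slc2a1 ran from 9.09% to 87.5%, with a mean of 53.5%, or 44.5% with all libraries kept, so neither gene clearly led there.

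Hexokinases Hk1 and Hk2 trap glucose in the cell as glucose 6-phosphate, and Gpi1 turns that into fructose 6-phosphate. Their sum averaged 100.4 at MII, 57.0 at 2c and 179 at 8c CPM in WT and 122 at MII, 42.3 at 2c and 160.1 at 8c CPM in KO. Hk1 stood at 0, 0 and 15.6 at MII, 0, 0 and 13.9 at 2c and 20.8, 42.5 and 118 at 8c in WT and at 0, 0.867 and 8.50 at MII, 0, 0 and 17.7 at 2c and 20.1, 38.4 and 129.8 at 8c in KO. Each 8c embryo was above each oocyte and 2c embryo of either genotype, with no overlap. Hk1 rose from 2c to 8c in WT (log2 4.87, SE 0.71, edgeR BH-adjusted p 1.52e-08, spike-in scale), as it did in KO (log2 4.97, SE 0.74, edgeR BH-adjusted p 2.61e-08). Hk2 went from medians of 0 and 3.25 CPM at 2c in WT and KO to 61.8 and 73.2 CPM at 8c. At 8c Hk1 made up 48.5% of 715 hexokinase counts in WT and 38.0% of 482 in KO, whereas WT oocytes and 2c embryos held only 46 and 19 such counts in all. Gpi1, the most abundant of this group in WT by mean CPM, stood at 23.2, 84.7 and 183 at MII, 5.75, 40.3 and 113 at 2c and 12.9, 60.3 and 164 at 8c in WT and at 29.7, 110.2 and 278 at MII, 9.75, 23.9 and 105 at 2c and 0, 34.3 and 64.3 at 8c in KO. Its ranges overlapped between all groups. In WT Gpi1 fell to 2c (log2 -2.71, SE 0.50, edgeR BH-adjusted p 2.05e-06) and rose to 8c (log2 1.46, SE 0.48, edgeR BH-adjusted p 0.00834), both per spike-in.

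Phosphofructokinase makes the step that commits sugar to glycolysis, and Pfkl, Pfkm and Pfkp encode its liver, muscle and platelet forms. Pfkfb3 makes fructose 2,6-bisphosphate, which activates it. Together these averaged 177 at MII, 128 at 2c and 66.8 at 8c CPM in WT and 209 at MII, 137 at 2c and 73.0 at 8c CPM in KO. Pfkm stood at 82.7, 158 and 336 at MII, 43.7, 72.6 and 186 at 2c and 4.78, 12.6 and 38.6 at 8c in WT and at 100.1, 184 and 324 at MII, 13.4, 87.8 and 229 at 2c and 0, 8.11 and 23.4 at 8c in KO. All oocytes were above all 8c embryos in both genotypes, the 2c embryos overlapped with the oocytes, and the genotypes overlapped at each stage. Pfkm fell in WT both to 2c (log2 -2.44, SE 0.36, edgeR BH-adjusted p 1.43e-08) and to 8c (log2 -1.44, SE 0.35, edgeR BH-adjusted p 3.74e-04), each per spike-in. Its share of the phosphofructokinase counts in WT was 94.0% at MII, 87.3% at 2c and 82.6% at 8c, so it led throughout. Pfkl and Pfkp never passed a group median of 9.22 CPM. Pfkfb3 stood at 0, 4.73 and 18.8 at MII, 5.46, 30.2 and 78.8 at 2c and 5.21, 49.7 and 86.8 at 8c in WT and at 2.13, 7.95 and 28.3 at MII, 0, 24.7 and 89.3 at 2c and 16.0, 69.7 and 133 at 8c in KO. It was low in oocytes and higher in embryos, with overlap between neighbouring stages. Pfkfb3 rose from 2c to 8c in WT (log2 1.36, SE 0.52, edgeR BH-adjusted p 0.0254, spike-in scale).

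The lower steps of glycolysis run from aldolase (Aldoa, Aldoc) and triose phosphate isomerase (Tpi1) through Gapdh, Pgk1, Pgam1 and enolase (Eno1, Eno3) to pyruvate kinase (Pkm). Their sum averaged 546 at MII, 452 at 2c and 1002 at 8c CPM in WT and 486 at MII, 495 at 2c and 593 at 8c CPM in KO. Gapdh, which oxidises glyceraldehyde 3-phosphate and makes NADH, stood at 13, 46.5 and 85.9 at MII, 4.56, 25.9 and 49.5 at 2c and 0, 8.41 and 40.7 at 8c in WT and at 9.74, 27.3 and 80.8 at MII, 0, 19.5 and 95.7 at 2c and 0, 0 and 4.06 at 8c in KO. At 8c 12 of 15 WT and 4 of 11 KO embryos held Gapdh counts, the KO embryos lay at the low end of the WT range, and at MII and 2c the genotypes overlapped widely. Per spike-in, Gapdh fell to 2c in WT (log2 -2.65, SE 0.57, edgeR BH-adjusted p 3.93e-05) and in KO (log2 -2.29, SE 0.57, edgeR BH-adjusted p 3.21e-04). Between 2c and 8c it fell in KO (log2 -3.33, SE 0.75, edgeR BH-adjusted p 1.27e-04) but was not called in WT (log2 -0.21, SE 0.55, edgeR BH-adjusted p 0.789), where after TMM scaling it was called lower (log2 -1.20, SE 0.47, edgeR BH-adjusted p 0.0258, 0.0258 to 0.925 over alternatives). Its promoter (chr6:125165774-125166023, minus strand) is shown because the genotype difference at 8c was called, and holds none of the searched motifs.
Gapdh: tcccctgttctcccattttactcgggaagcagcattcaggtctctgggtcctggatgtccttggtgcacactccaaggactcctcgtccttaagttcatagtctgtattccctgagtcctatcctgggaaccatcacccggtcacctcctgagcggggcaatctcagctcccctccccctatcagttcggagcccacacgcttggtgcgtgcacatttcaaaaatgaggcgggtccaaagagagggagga

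Pgk1, which makes the first ATP of glycolysis, stood at 8.72, 34.9 and 81.6 at MII, 0, 56.3 and 131 at 2c and 27.6, 94.6 and 325 at 8c in WT and at 14.6, 38.2 and 69.4 at MII, 7.97, 20.1 and 46.2 at 2c and 10.1, 87.7 and 145 at 8c in KO. The stages overlapped in both genotypes, with the highest values in WT 8c embryos. It was the least lowered of the WT members called from MII to 2c (log2 -0.91, SE 0.42, edgeR BH-adjusted p 0.0499, spike-in scale). The call was lost in 6 of 7 alternatives, over which log2 ran from -1.52 to 0.57, the last after TMM scaling, and the edgeR BH-adjusted p from 0.0431 to 0.760. Pgam1, a mutase that moves the phosphate along, stood at 0, 19.5 and 47.7 at MII, 11.5, 104 and 182 at 2c and 184, 473 and 1102 at 8c in WT and at 4.13, 10.3 and 20.2 at MII, 27.7, 73.6 and 445 at 2c and 126, 237 and 741 at 8c in KO. In both genotypes 8c embryos were high and oocytes low without overlap between those stages, and in WT each 8c embryo was also above each 2c embryo. Pgam1 rose in WT to 2c (log2 1.02, SE 0.42, edgeR BH-adjusted p 0.0291) and again to 8c (log2 3.09, SE 0.47, edgeR BH-adjusted p 4.01e-08), both per spike-in. The rise of Pgam1 to 2c was not called in 2 of 7 alternatives, and within pools it was at log2 0.13 (edgeR BH-adjusted p 0.892) in pool A and 2.02 (0.00217) in pool B, in a range over alternatives of 3.22e-09 to 0.892. Pkm makes pyruvate and ATP and stood at 65.0, 118 and 593 at MII, 77.5, 156 and 288 at 2c and 0, 23.2 and 85.9 at 8c in WT and at 82.7, 169.8 and 409.6 at MII, 38.5, 151 and 455 at 2c and 0, 12.2 and 27.8 at 8c in KO. Oocytes and 2c embryos overlapped, and 8c embryos lay lowest, in KO without overlap. In WT Pkm fell to 2c (log2 -2.27, SE 0.51, edgeR BH-adjusted p 8.87e-05) and to 8c (log2 -1.51, SE 0.49, edgeR BH-adjusted p 0.00780), per spike-in. Eno3, the muscle enolase, had 0 counts in the oocytes of both genotypes and in WT 8c embryos. It had 3 counts in 2 of 11 WT and 4 in 2 of 11 KO 2c embryos and 5 in 3 of 11 KO 8c embryos, with a highest value of 8.63 CPM in WT and 23.9 CPM in KO at 2c. Its WT calls rest on those 3 counts, which lie at the floor, so no fold is given. Aldoa went from medians of 55.9 and 63.8 CPM at 2c in WT and KO to 276 and 141 CPM at 8c and made up at least 97.5% of the aldolase counts of each group. Tpi1 and Eno1 had medians between 2.77 and 66.7 CPM and between 6.69 and 34.8 CPM.

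Lactate dehydrogenase is made of the subunits Ldhb, the form common in heart, and Ldha, the form common in muscle. Ldhb stood at 416, 3175 and 6884 at MII, 201, 357 and 532 at 2c and 7.16, 27.3 and 61.1 at 8c in WT and at 1197, 2511 and 6692 at MII, 203, 508 and 2153 at 2c and 8.61, 19.1 and 36.5 at 8c in KO. In WT oocytes were high and 8c embryos low, the stages did not overlap except where the lowest oocytes met the highest 2c embryos, and the genotypes overlapped at each stage. Ldhb fell in WT to 2c (log2 -4.57, SE 0.43, edgeR BH-adjusted p 6.14e-16) and to 8c (log2 -2.60, SE 0.37, edgeR BH-adjusted p 5.34e-09), per spike-in, and after TMM scaling by -3.24 and -3.58. Ldha stood at 0, 0 and 14.5 at MII, 5.75, 28.1 and 45.6 at 2c and 0, 3.86 and 29.6 at 8c in WT and at 0, 0 and 0 at MII, 0, 13 and 63.8 at 2c and 0, 0 and 21.6 at 8c in KO. Ldha counts were found in 3 of 16 WT and 0 of 14 KO oocytes, and in 11 of 11 WT and 10 of 11 KO 2c embryos, the stage with the highest medians. Ldha rose from MII to 2c in WT (log2 3.0, SE 0.72, edgeR BH-adjusted p 2.29e-04, spike-in scale). In KO, where the oocytes had 0 counts, it was at least 25.7-fold higher at 2c per spike-in. Ldha made up 0.0302% of 26490 lactate dehydrogenase counts in WT at MII, 6.54% of 765 at 2c and 17.9% of 235 at 8c. In KO it made up 3.62% of 1628 at 2c and 14.6% of 96 at 8c, so Ldhb led in each group.

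**Figure D3:**
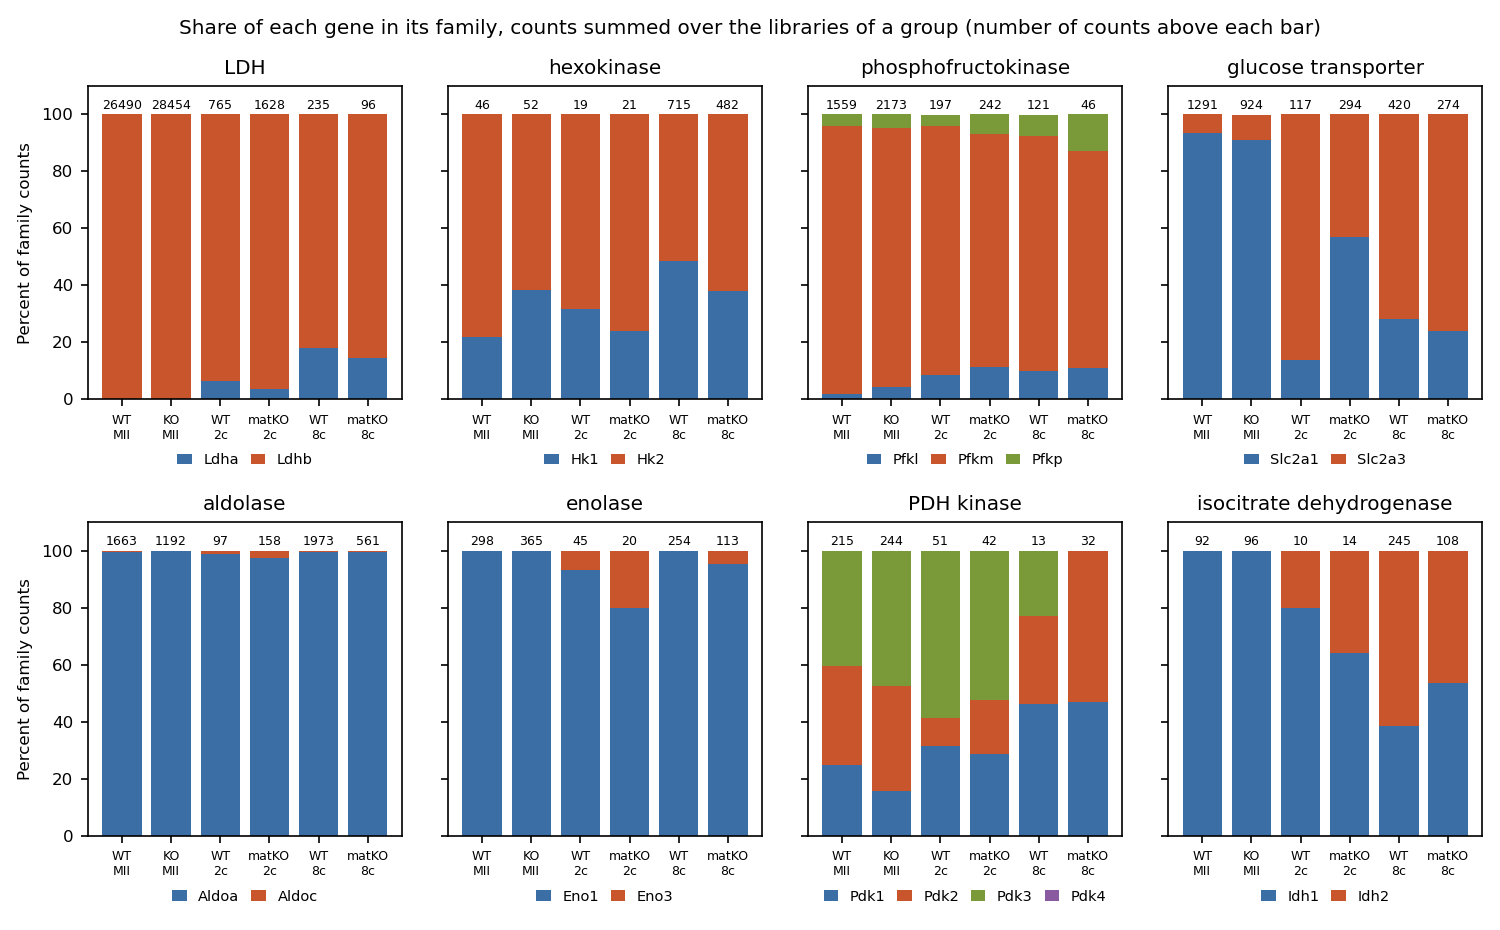
Bars give the percent of a family's counts, summed over the libraries of a group, that each gene makes up, with genes in colours, families in panels and the number of counts above each bar. Ldhb leads throughout while in WT the glucose transporter lead passes from Slc2a1 to Slc2a3.

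Mpc1 and Mpc2 form the carrier that brings pyruvate into mitochondria. Pdha1, Pdhb, Dlat and Dld make up the pyruvate dehydrogenase complex, Pdk1, Pdk2, Pdk3 and Pdk4 encode kinases that switch it off, and Pcx turns pyruvate into oxaloacetate. The 11 genes together averaged 385 at MII, 960.5 at 2c and 2273 at 8c CPM in WT and 432 at MII, 595 at 2c and 2029.8 at 8c CPM in KO. Mpc1 stood at 39.2, 175 and 280.3 at MII, 292, 613 and 896 at 2c and 795, 1043 and 1622 at 8c in WT and at 55.9, 143 and 259 at MII, 194, 314 and 655 at 2c and 880.1, 1154 and 1549 at 8c in KO. In WT the 2c embryos lay above all oocytes and mostly below the 8c embryos, and at 2c the KO embryos were lower but overlapped from 292 to 655 CPM. Mpc1 rose in WT to 2c (log2 0.58, SE 0.24, edgeR BH-adjusted p 0.0292) and to 8c (log2 1.68, SE 0.26, edgeR BH-adjusted p 6.06e-08), and in KO only to 8c (log2 2.49, SE 0.28, edgeR BH-adjusted p 1.96e-12), with no call to 2c (log2 -0.44, SE 0.25, edgeR BH-adjusted p 0.119), all per spike-in. The WT rise of Mpc1 to 2c was not called in 4 of 7 alternatives, and within pools it was at log2 0.42 (edgeR BH-adjusted p 0.417) in pool A and 0.70 (0.0856) in pool B, in a range over alternatives of 1.05e-11 to 0.417. After TMM scaling Mpc1 was called higher at 2c in KO too (log2 1.23, SE 0.23, edgeR BH-adjusted p 6.23e-06, 6.23e-06 to 0.548 over alternatives). Its promoters from RefSeq (chr17:8283537-8283786, plus strand and chr17:8284204-8284453, plus strand) are shown because its genotype difference at 2c was called.
Mpc1 entry 1: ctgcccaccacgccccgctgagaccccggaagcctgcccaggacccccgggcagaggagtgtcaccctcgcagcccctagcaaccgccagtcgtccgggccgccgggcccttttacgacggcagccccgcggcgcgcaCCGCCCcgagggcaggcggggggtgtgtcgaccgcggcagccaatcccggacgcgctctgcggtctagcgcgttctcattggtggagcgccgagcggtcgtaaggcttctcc
Mpc1 entry 2: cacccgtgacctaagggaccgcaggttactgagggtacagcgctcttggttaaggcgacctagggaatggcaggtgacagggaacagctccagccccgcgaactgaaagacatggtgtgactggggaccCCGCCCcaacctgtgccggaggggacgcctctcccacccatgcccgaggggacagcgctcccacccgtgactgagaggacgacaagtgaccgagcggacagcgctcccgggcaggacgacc
Each of them holds 1 GGGCGG and none of the other motifs.

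Pcx stood at 0, 3.33 and 15.6 at MII, 0, 0 and 5.21 at 2c and 0, 0 and 8.93 at 8c in WT and at 0, 5.19 and 23.4 at MII, 0, 8.16 and 39.9 at 2c and 0, 2.40 and 28.6 at 8c in KO. It was low in all groups, with counts in 3 of 11 WT and 10 of 11 KO 2c embryos and ranges that overlapped from 0 to 5.21 CPM. Pcx had 71 counts in WT oocytes and 3 in WT 2c embryos, per spike-in 15.3-fold lower with a 95% interval of 5.03 to 76.0 for counting error. The promoters of its starts (chr19:4510222-4510471, plus strand and chr19:4594069-4594318, plus strand) are shown for the same reason as those of Mpc1.
Pcx entry 1: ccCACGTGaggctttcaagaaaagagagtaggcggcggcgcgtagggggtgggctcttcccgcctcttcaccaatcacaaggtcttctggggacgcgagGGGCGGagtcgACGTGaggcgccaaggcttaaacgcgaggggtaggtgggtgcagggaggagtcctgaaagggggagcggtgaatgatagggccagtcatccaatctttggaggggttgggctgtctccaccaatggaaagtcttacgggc
Pcx entry 2: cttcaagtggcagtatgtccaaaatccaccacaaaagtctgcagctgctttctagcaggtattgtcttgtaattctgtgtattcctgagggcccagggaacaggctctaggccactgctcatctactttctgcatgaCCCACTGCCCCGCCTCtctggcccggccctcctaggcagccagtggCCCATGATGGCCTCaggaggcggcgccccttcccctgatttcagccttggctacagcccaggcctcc
Entry 1 of Pcx holds 3 ACGTG, of which 2 overlap each other on opposite strands, and 1 GGGCGG, and entry 2 holds 2 matches of the PLAG1 consensus.

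Pdk3 stood at 0, 8.63 and 29.9 at MII, 0, 11.5 and 43.7 at 2c and 0, 0 and 2.77 at 8c in WT and at 2.17, 8.90 and 34.4 at MII, 0, 7.70 and 20.4 at 2c and 0, 0 and 0 at 8c in KO. Counts were present in 10 of 11 2c embryos of each genotype and in 3 of 15 WT and 0 of 11 KO 8c embryos. From 2c to 8c its WT counts went from 30 to 3, per spike-in 16.5-fold lower with a 95% interval of 5.14 to 84.7, and in KO Pdk3 went from 22 to 0, at least 7.18-fold lower. Pdk1 stood at 0, 3.40 and 26.5 at MII, 0, 5.21 and 26.9 at 2c and 0, 0 and 4.20 at 8c in WT and at 0, 3.06 and 19.1 at MII, 0, 4.08 and 17.7 at 2c and 0, 0 and 13 at 8c in KO. Its groups overlapped at 0 and 6 of 11 WT 2c embryos against 5 of 15 WT 8c embryos had counts. On 16 and 6 counts, Pdk1 fell from 2c to 8c in WT (log2 -1.87, SE 0.76, edgeR BH-adjusted p 0.0345, spike-in scale). That call was lost with pool as a term and in each pool alone, or in 3 of 7 alternatives, over which log2 ran from -2.74 to -0.62 and the edgeR BH-adjusted p from 0.00216 to 0.779. Pdk2 had medians of 0 in embryos of both genotypes, and of 5.56 CPM in WT and 5.05 CPM in KO oocytes. Mpc2, Pdha1 and Pdhb rose from 2c to 8c in both genotypes, with WT medians going from 22.5 to 224, from 78.2 to 323 and from 189.9 to 473 CPM. Dlat and Dld were lower, with WT medians of 3.22 and 29.6 CPM at 8c.

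In the TCA cycle Cs makes citrate, Idh1, Idh2 and the Idh3 subunits oxidise isocitrate, and Ogdh with Dlst oxidises 2-oxoglutarate. Sucla2, Suclg1 and Suclg2 make up succinyl-CoA ligase, Fh1 is fumarase, and Mdh1 and Mdh2 are the cytosolic and mitochondrial malate dehydrogenases. Their sum averaged 1082 at MII, 868 at 2c and 1824 at 8c CPM in WT and 1089.7 at MII, 775 at 2c and 1439.8 at 8c CPM in KO. Cs stood at 92.9, 305 and 1164 at MII, 63.2, 260 and 432 at 2c and 50.2, 135 and 220.4 at 8c in WT and at 136, 323 and 523 at MII, 98.2, 265 and 597 at 2c and 45.6, 78.2 and 149 at 8c in KO. It was high in oocytes and low in 8c embryos, with overlap between all groups. Cs fell from MII to 2c in WT (log2 -2.01, SE 0.37, edgeR BH-adjusted p 2.46e-06, spike-in scale) and was not called to 8c (log2 -0.09, SE 0.35, edgeR BH-adjusted p 0.870), where after TMM scaling it was called lower (log2 -1.02, SE 0.27, edgeR BH-adjusted p 8.45e-04, 8.45e-04 to 0.949 over alternatives). Mdh2 stood at 0, 9.16 and 205 at MII, 74.7, 219.6 and 510.3 at 2c and 324, 462 and 955 at 8c in WT and at 1.84, 19.1 and 134 at MII, 69.2, 97.5 and 304 at 2c and 242, 384 and 572 at 8c in KO. Most oocytes were low, the highest of them WT in pool A, and 8c embryos were high. Mdh2 rose from 2c to 8c in WT (log2 2.08, SE 0.65, edgeR BH-adjusted p 0.00572, spike-in scale). Idh3b, a subunit of the NAD-dependent isocitrate dehydrogenase, stood at 0, 2.74 and 20.9 at MII, 7.07, 21.6 and 45.6 at 2c and 154, 237 and 362 at 8c in WT and at 0, 4.18 and 32.8 at MII, 0, 5.45 and 33.5 at 2c and 107, 231 and 355 at 8c in KO. No oocyte or 2c embryo reached the lowest 8c embryo in either genotype. Idh3b rose from 2c to 8c in WT (log2 4.20, SE 0.59, edgeR BH-adjusted p 3.38e-09), per spike-in.

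Idh2, the mitochondrial NADP-dependent enzyme, stood at 0, 0 and 0 at MII, 0, 0 and 8.96 at 2c and 0, 16.7 and 56.6 at 8c in WT and at 0, 0 and 0 at MII, 0, 0 and 15.9 at 2c and 0, 12.7 and 26.8 at 8c in KO. It had 0 counts in the oocytes of both genotypes, 2 and 5 counts in 1 of 11 WT and 3 of 11 KO 2c embryos, and counts in 14 of 15 WT and 9 of 11 KO 8c embryos. In WT its 2 counts at 2c stood against 151 at 8c, per spike-in 45.7-fold higher with a 95% interval of 12.4 to 380.5, and the rise was called (edgeR BH-adjusted p 1.05e-06 at a fitted log2 of 4.77). Idh1, its cytosolic partner, made up all 92 of the Idh1 and Idh2 counts in WT oocytes and 38.4% of 245 in WT 8c embryos. Dlst stood at 51.4, 177 and 729 at MII, 0, 28.3 and 69.1 at 2c and 19.1, 72.9 and 353 at 8c in WT and at 46.0, 192 and 451 at MII, 0, 50.8 and 215 at 2c and 12, 55.4 and 535 at 8c in KO. Oocytes were high, WT 2c embryos lowest, and neighbouring stages overlapped. Dlst fell to 2c in WT (log2 -4.47, SE 0.64, edgeR BH-adjusted p 5.41e-09) and rose to 8c (log2 2.65, SE 0.60, edgeR BH-adjusted p 1.28e-04), per spike-in. Suclg1 stood at 0, 24.6 and 75.3 at MII, 0, 4.32 and 21.2 at 2c and 67.3, 96.9 and 199 at 8c in WT and at 9.76, 34.4 and 73.6 at MII, 0, 13.4 and 32.3 at 2c and 61.7, 122 and 181 at 8c in KO. Each 8c embryo lay above each 2c embryo in both genotypes, and 6 of 11 WT 2c embryos had any Suclg1 count. Suclg1 fell to 2c in WT (log2 -3.76, SE 0.52, edgeR BH-adjusted p 2.09e-09) and rose to 8c (log2 5.32, SE 0.54, edgeR BH-adjusted p 4.65e-14), per spike-in. Of the rest, Sucla2, Suclg2, Fh1, Idh1 and Idh3a also fell and rose in WT, Idh3g only rose, Mdh1 only fell and Ogdh was called at neither step.

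The pentose phosphate pathway starts with G6pdx and Pgd, which make NADPH, and ends with Tkt and Taldo1, which return its sugars to glycolysis. The 4 genes averaged 597 at MII, 342 at 2c and 669 at 8c CPM in WT and 800.1 at MII, 409 at 2c and 484 at 8c CPM in KO. G6pdx stood at 174, 422 and 967 at MII, 33.8, 159 and 379 at 2c and 3.86, 16.6 and 26.7 at 8c in WT and at 267, 544 and 987 at MII, 127, 295 and 597 at 2c and 4.31, 7.63 and 32.5 at 8c in KO. All oocytes and all 2c embryos were above all 8c embryos of the same genotype. G6pdx fell in WT to 2c (log2 -3.18, SE 0.45, edgeR BH-adjusted p 3.75e-09) and to 8c (log2 -2.45, SE 0.42, edgeR BH-adjusted p 9.44e-07), per spike-in. Tkt, a transketolase, stood at 11.6, 32.0 and 134 at MII, 0, 4.48 and 14.1 at 2c and 48.7, 105 and 288 at 8c in WT and at 9.21, 39.1 and 153 at MII, 0, 0 and 30.1 at 2c and 50.7, 101 and 202 at 8c in KO. The 2c embryos were the lowest and did not overlap with 8c in either genotype, and 6 of 11 WT and 5 of 11 KO 2c embryos had counts. Tkt fell to 2c in WT (log2 -4.32, SE 0.65, edgeR BH-adjusted p 2.44e-08) and rose to 8c (log2 5.35, SE 0.68, edgeR BH-adjusted p 1.33e-10), per spike-in. Pgd had WT medians of 8.04, 31.9 and 129 CPM in order of stage and rose to 8c in both genotypes.

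Taldo1, the transaldolase, stood at 0, 55.3 and 276 at MII, 5.75, 112 and 266 at 2c and 282, 345 and 561 at 8c in WT and at 6.38, 211 and 299 at MII, 0, 56.4 and 87.0 at 2c and 136, 269 and 406 at 8c in KO. KO oocytes tended to be high and KO 2c embryos low, with overlap between the genotypes at each stage, and in WT all 8c embryos were above all 2c embryos and oocytes. Taldo1 fell to 2c in WT (log2 -1.46, SE 0.51, edgeR BH-adjusted p 0.0104) and in KO (log2 -3.52, SE 0.58, edgeR BH-adjusted p 1.82e-07), and rose to 8c in both, in WT by 2.58 and in KO by 3.23 on the log2 spike-in scale. At the MII to 2c step in WT, Taldo1 was not called in 3 of 7 alternatives. Those were with TMM factors (log2 0.28, SE 0.41, edgeR BH-adjusted p 0.595, 0.00235 to 0.595 over alternatives), with pool as a term and with only the groups compared in the fit. With pool B alone, Taldo1 was called in the opposite direction, higher at 2c. The WT means at MII and 2c were 170 and 104 CPM in pool A and 22.8 and 127 CPM in pool B, in opposite order. The promoter of Taldo1 (chr7:141391910-141392159, plus strand) is shown because its genotype difference itself differed between stages, and holds 1 GGGCGG.
Taldo1: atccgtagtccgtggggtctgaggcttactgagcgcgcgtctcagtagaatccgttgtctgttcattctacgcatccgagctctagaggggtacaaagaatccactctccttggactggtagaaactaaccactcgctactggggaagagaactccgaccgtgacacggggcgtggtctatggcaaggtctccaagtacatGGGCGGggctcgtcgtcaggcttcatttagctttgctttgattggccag

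**Figure D4:**
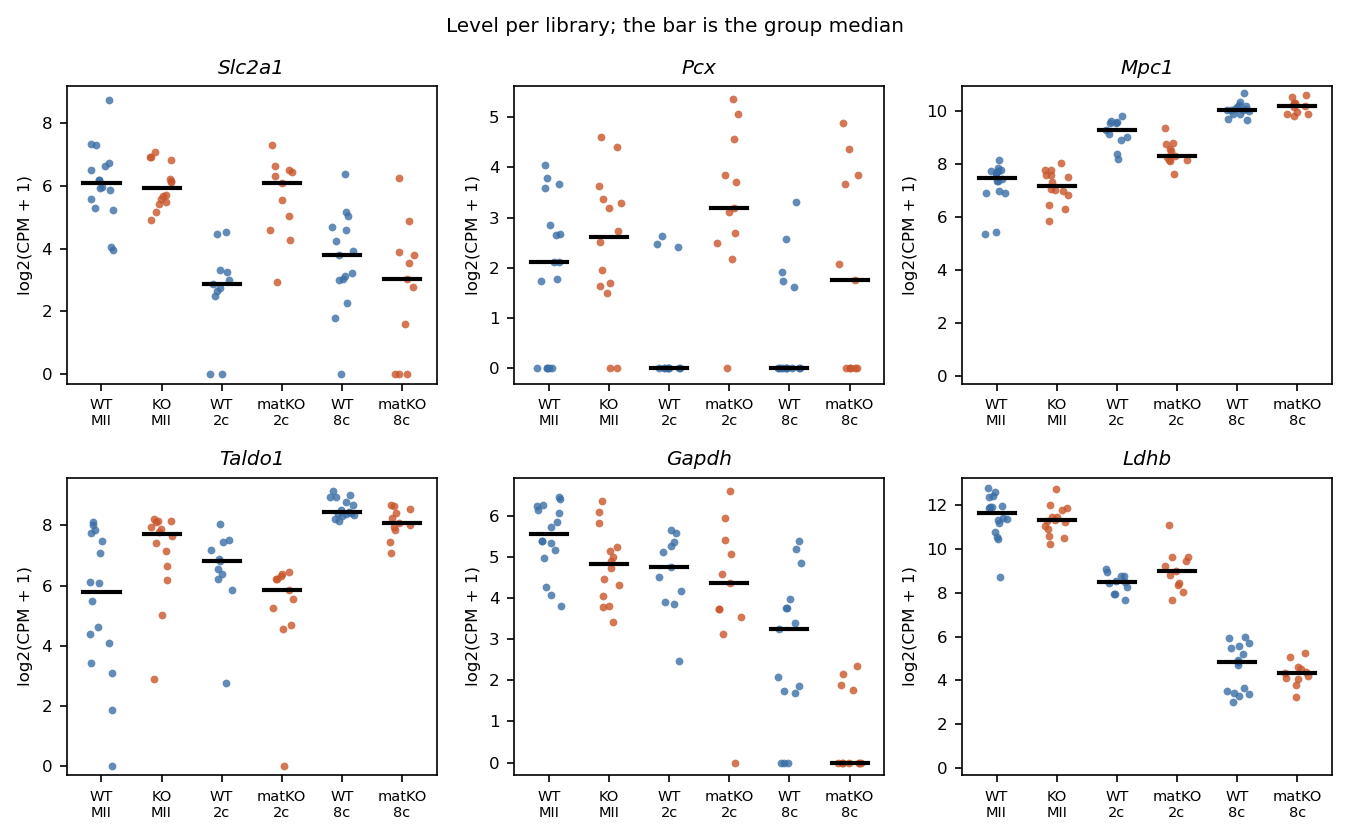
Points are libraries at log2 of CPM plus 1 of a gene, by stage, with WT and KO in different colours and bars at the group medians. KO lies above WT at 2c for Slc2a1 and Pcx and below it for Mpc1, and below it at 8c for Gapdh.

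The same stage steps were taken by KO embryos. From MII to 2c, 5 members rose and 31 fell in KO per spike-in, while 13.5% and 50.3% of all genes did, and the medians were log2 -1.42 over all genes and -1.98 over members. After TMM scaling 11 members rose and 16 fell at this step, while 29.1% and 19.3% of all genes did, and the medians were 0.14 and -0.17. From 2c to 8c, per spike-in, 26 members rose and 10 fell, while 29.1% and 19.5% of all genes did, and the medians were 0.30 and 1.32. There TMM scaling gave 22 and 12, while 21.2% and 30.3% of all genes were called so, with medians of -0.31 and 0.57. Per spike-in 3 of 49 members rose and 27 fell in both genotypes at the first step, while 9.16% and 42.7% of all genes did. At the next step 26 rose and 5 fell in both, while 23.1% and 11.5% of all genes did. None went opposite ways, while 0.430% and 0.200% of all genes did at the 2 steps. Mpc1 and Pcx were called to 2c only in WT, and Aldoc, Ogdh, Pdk3, Idh3b, Idh2 and Pdhb only in KO, while 13.2% and 11.6% of all genes were. Pdk1, Eno3, Slc2a1 and Gpi1 were called to 8c only in WT, and Tpi1, Pfkl, Ldha, Cs and Gapdh only in KO, while 13.3% and 13.8% of all genes were. A call in only 1 genotype is not a test of the difference between genotypes, which follows below.

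At MII the genotypes differ in what the growing oocyte stored, as no embryonic transcription has begun. KO oocytes lack Plag1 through growth, and any effect on genes such as Ldhb would be read here as a difference in stored RNA. Ldhb, the most abundant member, had a genotype difference of log2 -0.28 with SE 0.28, and its ranges overlapped. Its WT and KO means were 2046 and 3097 CPM in pool A and 4708 and 2454 CPM in pool B, in opposite order. Under edgeR's quasi-likelihood test 0 of 49 members were called in either direction at MII, while 0.309% of all genes were called higher and 0.472% lower in KO. At an unadjusted p under 0.05 there were 6 members, while 10.2% of all genes were, and DESeq2 called 0 members and 0.497% of all genes. The median difference was log2 0.00 over all genes and 0.16 over members. Per spike-in, 13 members had an unadjusted p under 0.05, while 12.4% of all genes did, and the medians were 0.30 and 0.49. On that scale 0 members were called, while 0.830% of all genes were.

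The pools differed at MII. In pool A alone 1 member was called, Mdh2, lower in KO, while 0.385% of all genes were called lower and 0.531% higher. Mdh2 had pool means of 75.9 CPM in WT and 15.1 CPM in KO. In pool B alone 3 were called, Taldo1, Mdh2 and Idh3b, all higher in KO, while 2.42% of all genes were called higher and 0.633% lower. There Mdh2 had means of 8.54 CPM in WT and 36.5 CPM in KO, so its direction was opposite in the pools. For Taldo1 the WT and KO means were 170 and 222 CPM in pool A and 22.8 and 144 CPM in pool B. With the well, shared by a WT and a KO oocyte in different pools, as a block and pool as a term, 2 of 45 members were called over 14 pairs, both higher in KO, while 4.92% of all genes were called higher and 1.18% lower. Taldo1 differed by log2 1.48 (SE 0.21, edgeR BH-adjusted p 5.90e-09) and was higher in KO in 11 of 14 pairs. Pdhb, named after its values were seen, differed by log2 0.56 (SE 0.18, edgeR BH-adjusted p 0.0392) and was higher in KO in 12 of 14 pairs. Without the block the same wells gave 0 calls, and the unblocked values for all MII libraries were 0.90 (edgeR BH-adjusted p 0.329) for Taldo1 and 0.62 (0.431) for Pdhb.

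At 2c the KO embryos are those whose egg lacked Plag1 and whose paternal copy is intact by the cross. This is the stage of the major activation of the embryo's genome, and one at which glucose is little used. Of 49 members 2 were higher in KO (Slc2a1 and Pcx), while 2.30% of all genes were, and 1 was lower (Mpc1), while 2.62% of all genes were. At an unadjusted p under 0.05 there were 13 members, while 20.5% of all genes were. DESeq2 called 6, namely Slc2a1, Pcx, Mpc1, Ldhb, Suclg1 and G6pdx, while it called 6.87% of all genes. The median difference was log2 0.12 over all genes and 0.02 over members.

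Slc2a1 had counts in 9 of 11 WT and 11 of 11 KO embryos at 2c and was higher in KO (log2 2.99, SE 0.60, edgeR BH-adjusted p 0.00142). Within pools the log2 value was 3.61 (edgeR BH-adjusted p 0.362) in pool A and 2.78 (0.00831) in pool B. Without its highest library, KO pool B well D7, it was 2.77 (0.00502), with BH-adjusted p over all alternatives between 3.80e-05, that of DESeq2, and 0.362. Pcx, with 3 counts in WT and 32 in KO, was 9.12-fold higher with a 95% interval of 2.85 to 46.5 for counting error, and its fitted difference was called (log2 3.0, SE 0.88, edgeR BH-adjusted p 0.0315). Within pools Pcx was at log2 3.62 (edgeR BH-adjusted p 0.493) in pool A and 2.25 (0.264) in pool B. Leaving out KO pool A well D1, its highest library, gave Pcx a log2 of 2.72 and an edgeR BH-adjusted p of 0.0608, which loses the call, within a range over alternatives of 0.0119 to 0.493. Mpc1 had counts in all 22 embryos and was lower in KO (log2 -0.79, SE 0.25, edgeR BH-adjusted p 0.0476). Within pools Mpc1 was at log2 -0.94 (edgeR BH-adjusted p 0.539) in pool A and -0.76 (0.197) in pool B. Leaving out WT pool B well C8, its highest library, gave Mpc1 a log2 of -0.72 and an edgeR BH-adjusted p of 0.0868, with 0.0460 to 0.539 over the alternatives. Over 9 alternatives Slc2a1 lost its call in 1, Pcx in 4 and Mpc1 in 7. In pool A alone 0 of all 15073 genes tested were called at 2c, and in pool B alone 3.31% of all genes were.

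At 8c both kinds of embryo transcribe fully from their own genome and Plag1 is near 0 in both. Glycolytic genes such as Pgam1 and Aldoa are among the more abundant members here. Under edgeR 0 of 49 members were higher in KO, while 1.21% of all genes were, and DESeq2 also called 0 members higher, while it called 1.62% of all genes so. Gapdh alone was lower, while 0.527% of all genes were. At an unadjusted p under 0.05 there were 11 members, while 14.3% of all genes were, and the median difference was log2 0.00 over all genes and -0.38 over members. Gapdh had 77 counts in WT and 5 in KO and was lower in KO (log2 -2.95, SE 0.64, edgeR BH-adjusted p 0.00474). Within pools Gapdh was at log2 -3.69 (edgeR BH-adjusted p 0.200) in pool A and -2.19 (0.300) in pool B. Of all genes 0.0398% were called at 8c in pool A alone and 0.303% in pool B alone. Without its highest library, WT pool A well F4, the Gapdh value was -2.68 with an edgeR BH-adjusted p of 0.0155, and the alternatives ranged from 0.00292 to 0.300. Aldoa, another enzyme of lower glycolysis, had medians of 276 CPM in WT and 141 CPM in KO and was not called (log2 -1.12, SE 0.37, edgeR BH-adjusted p 0.0915).

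**Figure D5:**
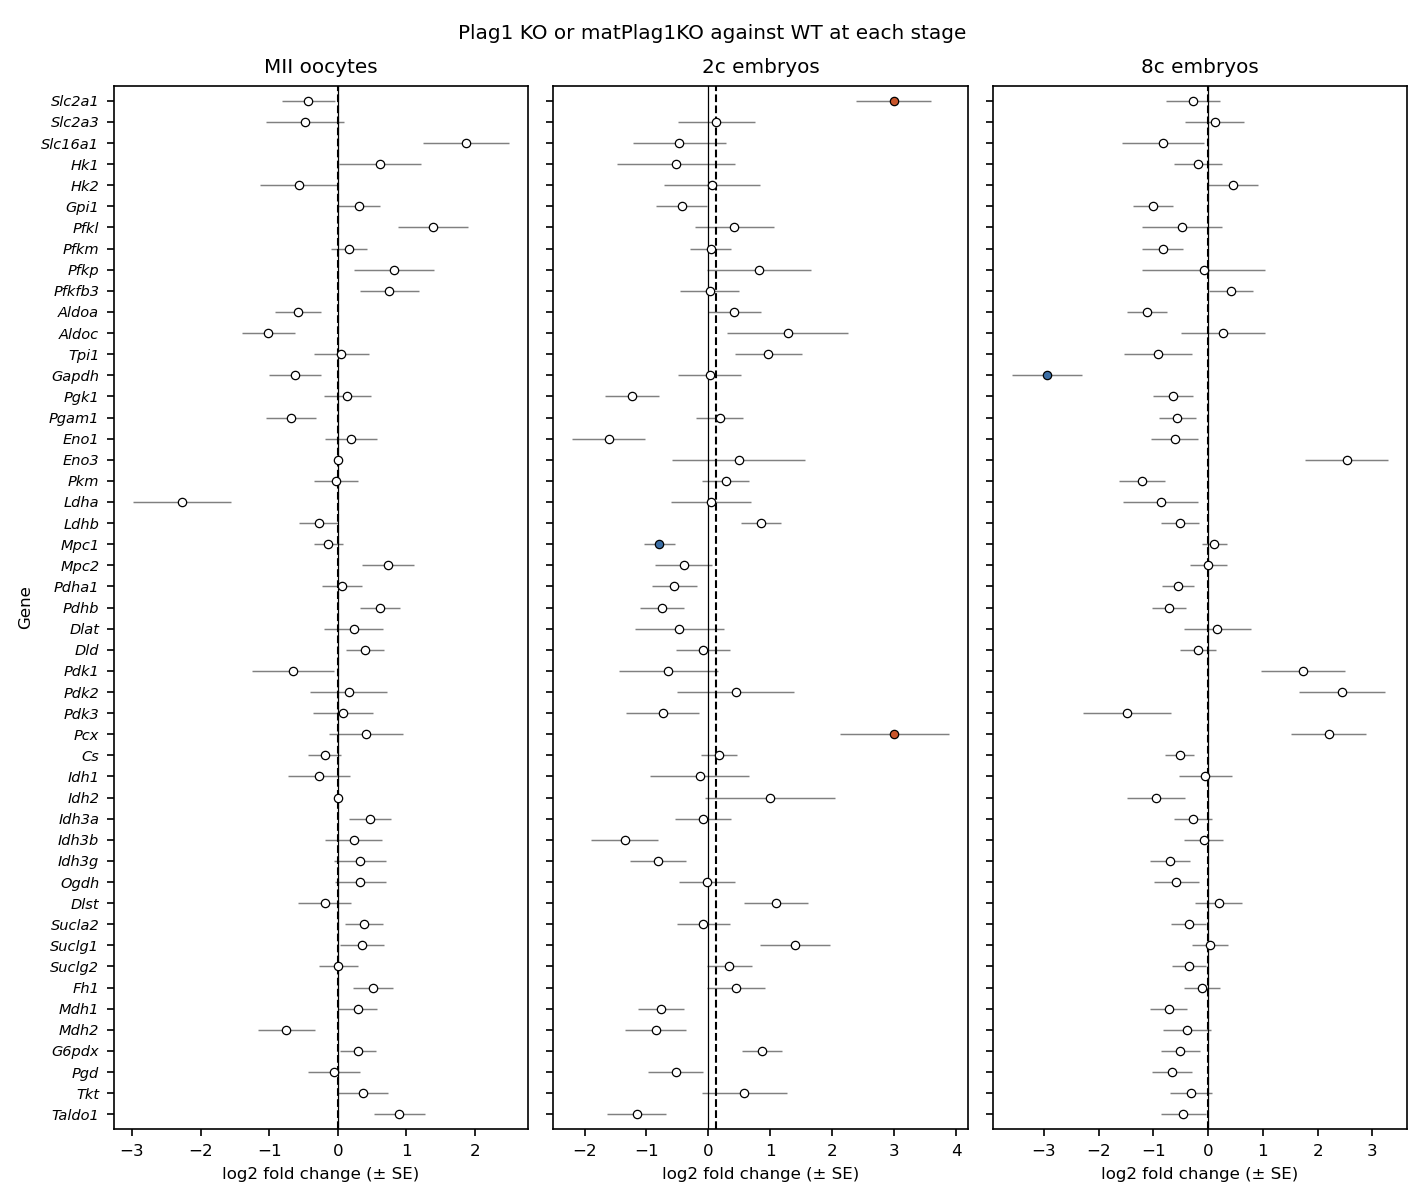
Points are members at their log2 fold change of KO against WT after TMM scaling, with SE, by stage, and called members are filled. Dashed lines mark the median over all tested genes. Eno3 and Idh2, with 0 counts in both genotypes at MII, are drawn there at 0 without SE. Slc2a1, Pcx and Mpc1 stand out at 2c and Gapdh at 8c.

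Whether a genotype difference itself changed with stage was tested as a difference of differences, and both such tests share the 2c libraries. A positive value means that KO was higher relative to WT at 2c than at the other stage. Against MII, 1 member was higher (Slc2a1), while 1.62% of all genes were, and 1 lower (Taldo1), while 1.68% of all genes were. At an unadjusted p under 0.05 were 12 members and 17.7% of all genes, and DESeq2 called Slc2a1, Taldo1 and Ldhb and 4.42% of all genes. Against 8c, 2 members were higher (Slc2a1 and Gapdh), while 1.17% of all genes were. None was lower under edgeR, while 1.13% of all genes were, and 11 members had an unadjusted p under 0.05 in either direction. At that level were 17.9% of all genes. DESeq2 called 6 members here, all of them higher, and 3.96% of all genes.

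For Slc2a1 the difference at 2c exceeded that at MII (log2 3.42, SE 0.72, edgeR BH-adjusted p 0.00252), within pools at log2 5.25 (edgeR BH-adjusted p 0.00876) in pool A and 1.72 (0.271) in pool B. It also exceeded that at 8c (log2 3.28, SE 0.79, edgeR BH-adjusted p 0.0130), within pools at log2 2.96 (edgeR BH-adjusted p 0.452) in pool A and 4.75 (0.00719) in pool B. At MII the WT and KO means of Slc2a1 were 143 and 45.4 CPM in pool A and 46.0 and 97.0 CPM in pool B, in opposite order. Taldo1, higher in KO oocytes and lower in KO 2c embryos by the medians, differed between those stages (log2 -2.07, SE 0.61, edgeR BH-adjusted p 0.0378), within pools at log2 -1.50 (edgeR BH-adjusted p 0.426) in pool A and -3.93 (2.18e-04) in pool B. Without WT pool B well C3, its highest 2c library, Taldo1 was at -1.92 with an edgeR BH-adjusted p of 0.0661, in a range over alternatives of 2.18e-04 to 0.426. For Gapdh the difference at 2c exceeded that at 8c (log2 2.97, SE 0.82, edgeR BH-adjusted p 0.0306), within pools at log2 3.59 (edgeR BH-adjusted p 0.407) in pool A and 2.20 (0.290) in pool B. Without KO pool A well D1, its highest 2c library, Gapdh was at 2.62 with an edgeR BH-adjusted p of 0.0639, in a range of 0.00967 to 0.407. Taldo1 and Gapdh thus each lose these calls without 1 library.

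Beyond the members, 79 further genes of these pathways were listed, of which the table held 75 and 67 were tested. Between genotypes edgeR called 0 at MII and 0 at 8c, where 5 and 6 of the 67 had an unadjusted p under 0.05, against 10.2% and 14.3% of all genes. DESeq2 called 0 and 2 (Txnip and Pdp1) at these stages, while it called 0.497% and 2.11% of all genes. At 2c edgeR called 1, higher in KO, while 2.30% of all genes were called higher and 2.62% lower. DESeq2 called 5 there, and 6.87% of all genes, and 15 of the 67 had an unadjusted p under 0.05, against 20.5% of all genes. The gene called by edgeR, Ldhd, encodes a mitochondrial D-lactate dehydrogenase and stood at 0, 8.12 and 31.8 at MII, 0, 0 and 7.07 at 2c and 0, 0 and 2.60 at 8c in WT and at 0, 15.0 and 36.0 at MII, 0, 9.24 and 42.2 at 2c and 0, 0 and 1.91 at 8c in KO. At 2c, 1 of 11 WT and 8 of 11 KO embryos had Ldhd counts, 1 and 37 in all, and the groups overlapped up to 7.07 CPM. Ldhd was 31.6-fold higher with a 95% interval of 5.33 to 1282 for counting error and its fitted difference was called (log2 4.30, SE 0.86, edgeR BH-adjusted p 0.00139). Its genotype difference at 2c also exceeded that at MII (log2 3.66, SE 0.99, edgeR BH-adjusted p 0.0226). In WT, 11 of the 67 rose and 39 fell per spike-in at the MII to 2c step, while 14.1% and 51.3% of all genes did. At the step to 8c 26 rose and 10 fell, while 31.9% and 16.2% of all genes did. At the first step the highest called were Slc16a6 (log2 5.52), a transporter, Pgm3 (4.01), of amino sugar synthesis, and Pdp2 (3.38), which reactivates pyruvate dehydrogenase. The lowest were Txnip (-6.33), which restrains glucose uptake, Tktl2 (-5.35), a transketolase relative, and Ldhd, with 112 and 1 counts, per spike-in 72.5-fold lower with a 95% interval of 12.7 to 2888. At the next step the highest were Fbp2 (8.01), a fructose bisphosphatase, Eno2, an enolase with 1 and 158 counts, per spike-in 95.6-fold higher with a 95% interval of 16.9 to 3798, and Pfkfb2 (4.91). The lowest there were Ldhc (-3.37), the germ cell lactate dehydrogenase, Bpgm (-2.78), which makes 2,3-bisphosphoglycerate, and Me1 (-2.51), the cytosolic malic enzyme.

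RefSeq promoters on GRCm38.p6 were matched by symbol for 48 of 50 members, with 71 entries, and Slc2a3 and Idh3a had none. TATAAA was in 0 of the 71 and in 12.4% of all 32851 promoters of the same length, in either strand. ACGTG was in 35.2% of member entries and 16.6% of all, GGGCGG in 56.3% and 32.7%, and the PLAG1 consensus in 39.4% and 19.9%. Member promoters were also richer in G and C, with a median of 60.8% against 52.4% over all, and 61 of 71 lay above that median. A match, in Slc2a1 as in the rest, is a description, not a site or a cause.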

How the data were processed

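The authors filtered and demultiplexed the reads, joined molecular identifiers, mapped to mm9 with TopHat and counted with HOMER, by the submitters' processing notes. Versions are not given in the sources used here. The deposited raw count per gene and spike-in was used as it stands. From it were computed CPM on TMM library sizes, counts per 100 spike-in counts, and tests in R 4.3.3 with edgeR 4.0.16 (limma 3.58.1), and with DESeq2 1.42.0 as an alternative. All 6 groups were fitted together, and a gene was called at an adjusted p under 0.05. Named genes are those called between genotypes, the 5 highest and 5 lowest called at each WT step, and the most abundant of each role. The members and lists were chosen with earlier results of these data known.

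Wells carry the same names in both pools, and at MII a shared name joins a WT with a KO library. Correlations of paired libraries, as deviations from group means, passed 0.1 in 12 of 14 pairs (lowest -0.0268), short of the limit of all pairs. As deviations from group and pool means, one of several forms tried after the block's calls had been seen, they passed in 14 of 14 (lowest 0.123). The block is therefore given only as an alternative. No block that compares genotypes within wells was possible at 2c, with 2 of 8 pairs of opposite genotype, or at 8c, with 0 of 12. At 8c 4 of 12 pairs passed 0.1 as deviations from group means and 11 of 12 from group and pool means. At 2c 2 of 8 and 4 of 8 did. The tests at 2c and 8c treat these libraries as independent.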

Additional observations from a re-analysis of the deposited data

Results flagged for a closer look

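The test of a genotype difference at 2c against that at another stage picked out 5 results. Against MII these were Slc2a1 (log2 3.42, SE 0.72, edgeR BH-adjusted p 0.00252), Taldo1 (log2 -2.07, SE 0.61, edgeR BH-adjusted p 0.0378) and Ldhd (log2 3.66, SE 0.99, edgeR BH-adjusted p 0.0226). Against 8c they were Slc2a1 (log2 3.28, SE 0.79, edgeR BH-adjusted p 0.0130) and Gapdh (log2 2.97, SE 0.82, edgeR BH-adjusted p 0.0306). Of these Slc2a1 rests on 16 counts in WT and 168 in KO at 2c, Ldhd on 1 and 37, and Gapdh on 77 in WT and 5 in KO at 8c. Taldo1 had 1102 and 1844 counts at MII and 244 and 123 at 2c. The causes were not tested.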

How the results depend on the processing

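The number of members called between genotypes moved with the setting, and the cause was not tested. In pool A alone it was 1 at MII, 0 at 2c, 0 at 8c, 1 for the difference between 2c and MII and 0 for that between 2c and 8c, against 0, 3, 1, 2 and 2 with both pools, and fewer libraries were tested. Of all genes 0.916%, 0%, 0.0398%, 0.259% and 0% were called in pool A, in the same order. In pool B alone these counts were 3, 1, 0, 5 and 1, while 3.05%, 3.31%, 0.303%, 3.38% and 1.12% of all genes were called. With spike-in library sizes they were 1 at 2c, 1 for 2c against MII and 0 for 2c against 8c, while 1.73%, 1.89% and 0.557% of all genes were called. DESeq2 gave 6 at 2c and 6 for 2c against 8c, while it called 6.87% and 3.96% of all genes. With all libraries kept there were 4 at 2c (Slc2a1, Pcx, Eno1 and Pgk1, without Mpc1), 2 at 8c (Aldoa and Gapdh) and 1 for 2c against MII. Of all genes 4.63%, 1.98% and 2.53% were called there. With only the groups compared in the fit there were 4 at 8c (Gapdh, Aldoa, Idh3g and Pdhb) and 1 for 2c against MII. Under that setting 1.78% of all genes were called higher and 1.21% lower at 8c, and 2.24% were called for 2c against MII. The well block gave 2 at MII, where 639 genes were called higher and 153 lower, against 15 and 19 without the block. The total counts of members called between stages stayed within 1.5 times the count given under every alternative run. Only part of the mean shares within isozyme families were run under alternatives, and those 32 values stayed within 1 SD. The split into higher and lower moved more. From MII to 2c in WT it went from 4 and 28 to 15 and 18 with TMM factors. It was 1 and 28 in pool A, 9 and 20 in pool B and 1 and 26 with only the groups compared. In the same order, 14.1% and 51.3% of all genes became 27.5% and 23.1%, 7.56% and 46.9%, 15.9% and 30.0%, and 12.9% and 56.9%. In KO it went from 5 and 31 to 11 and 16 with TMM factors. It was 3 and 26 in pool A, 2 and 29 in pool B and 2 and 31 with only the groups compared. There 13.5% and 50.3% of all genes became 29.1% and 19.3%, 8.61% and 40.8%, 9.45% and 43.0%, and 11.3% and 58.9%. From 2c to 8c TMM factors gave 23 and 12 in WT and 22 and 12 in KO, against 28 and 7 and 26 and 10. Of all genes 21.0% and 28.9% were called so in WT and 21.2% and 30.3% in KO, against 31.9% and 16.2% and 29.1% and 19.5%. The mean Slc2a1 share in KO 2c embryos was 53.5%, and 44.5% with all libraries kept, where Slc2a3 led. Of the values of members called between genotypes, and of the 5 highest and 5 lowest called at each WT step, 165 kept direction and call, 40 kept direction and lost the call, and 1 reversed: Pgk1 from MII to 2c in WT, at 0.57 after TMM scaling. Outside that tally the same scaling turned the falls to 2c of Taldo1 and Pdha1 in WT, and of Ogdh, Pkm, Idh3b and Pdhb in KO, to values above 0 that were not called. The fall of Taldo1 to 2c in WT was also reversed in pool B alone, where Taldo1 was called higher at 2c. In WT the call of Pfkfb3 to 8c was lost in 3 of 7 alternatives, those of Gpi1 to 8c and of Gapdh and Pkm to 2c in 2, and those of Pcx and Cs to 2c and of Pfkm, Pkm and Mdh2 to 8c in 1. Depth limits the 2c groups most: a gene with no counts in WT 2c embryos may reach 1.81 CPM, and Pcx, Idh2, Eno3, Eno2 and Ldhd rest on 1 to 3 counts there.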
